A study of Mus musculus with 22 samples.

Results

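Gpbar1 encodes the cell-surface receptor for bile acids, and the data describe how open the chromatin around its start site was in mouse adipocytes. It is 1 gene of 55413 in the annotation, and it was picked because the obesity difference at its promoter was not alike in the 2 diet durations, by both total and maximum signal. Those contrasts are therefore described here without a test. The promoter was taken as 2 kb on each side of the annotated start site, and the surroundings as the gene with 20 kb on each side, where 7 other genes lie. All 22 libraries were used, and peaks in 19 of them reached the promoter.

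Chromatin openness was read by ATAC-seq, in which a transposase cuts accessible DNA, on nuclei of labelled adipocytes from snap-frozen epididymal fat. Each library came from 1 mouse. All mice were AdipoERCre x NuTRAP animals on a background labelled C576BL6, which the study's methods name as C57BL/N: an Adiponectin-driven, tamoxifen-inducible Cre switches on a reporter in adipocytes that biotin-tags their nuclei, so that only cells that recombined were pulled down. All had tamoxifen as young mice, controls included, and a washout before the diets. The short arm held C (n = 3), fed chow, and H (n = 3), fed high-fat diet for 12 weeks, both sampled at 18 weeks of age. HC (n = 3) went back to chow for 8 weeks after such a diet and was sampled at 26 weeks with its chow-fed control CC_s (n = 3). The long arm held CC_l (n = 2), on chow, and HH (n = 3), on high-fat diet for 25 weeks, both sampled at 31 weeks. HHC (n = 3) followed the HH diet with 8 weeks of chow and was sampled at 39 weeks with its chow-fed control CCC (n = 2). In the last 8 weeks the controls changed chow as well, so CC_s and CCC differed from C and CC_l in both age and food. The arms were prepared as separate library series and the arm and the series cannot be told apart.

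GPBAR1, also called TGR5, is a receptor coupled to the stimulatory G protein. Bile acids that bind it raise cyclic AMP, and in adipose tissue and macrophages this pathway is known for its links to energy expenditure and to the restraint of inflammation. It acts beside nuclear bile acid receptors such as FXR (Nr1h4), which work as transcription factors. An open promoter marks a gene that can be read and is not a measure of its RNA.

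In the annotation of build GRCm38, Gpbar1 lies on the plus strand of chromosome 1 at chr1:74278550-74279624. It has 1 exon of 1075 bp with a coding sequence of 987 bp. The next gene, Aamp, which encodes an angio-associated migratory cell protein, ends just downstream and is read towards Gpbar1 from a start site 6188 bp away. Its start faces that of Pnkd, a mitochondrial-associated gene linked to paroxysmal dyskinesia, across 191 bp. The Aamp and Pnkd starts thus form a promoter pair with its own open chromatin. Arpc2, a subunit of the actin-nucleating Arp2/3 complex, lies upstream, and Tmbim1, a lysosomal membrane protein gene, lies inside the span of Pnkd. The other neighbours were the non-coding genes Gm28364, Gm37503 and Gm29358.

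The sequences below show where the highest coverage of the peaks fell (GRCm38, plus strand, 5′ to 3′). The 200 bases before the Gpbar1 start (chr1:74278350-74278549) are shown first, because the promoter is named for them, with capitals for the part of the highest coverage in HH 1 that lies before the start. That summit ran from 74278541 to 74278580, so most of it is past the printed end. The second (chr1:74278050-74278211) holds the summits of 4 peaks at Gpbar1, with capitals for those of CC_s 1, HH 2, HH 3 and CCC 2. The third (chr1:74284739-74284929) is the gap between the Aamp and Pnkd starts, with capitals for the summits of 16 libraries.
Gpbar1 start: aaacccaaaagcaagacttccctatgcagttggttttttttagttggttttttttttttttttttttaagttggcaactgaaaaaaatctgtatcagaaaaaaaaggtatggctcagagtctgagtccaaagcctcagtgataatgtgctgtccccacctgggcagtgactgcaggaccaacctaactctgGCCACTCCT
Gpbar1 summits: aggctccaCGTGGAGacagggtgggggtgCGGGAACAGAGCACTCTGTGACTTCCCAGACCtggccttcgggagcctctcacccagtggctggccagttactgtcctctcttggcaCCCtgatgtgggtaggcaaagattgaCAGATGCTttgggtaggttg
Aamp-Pnkd gap: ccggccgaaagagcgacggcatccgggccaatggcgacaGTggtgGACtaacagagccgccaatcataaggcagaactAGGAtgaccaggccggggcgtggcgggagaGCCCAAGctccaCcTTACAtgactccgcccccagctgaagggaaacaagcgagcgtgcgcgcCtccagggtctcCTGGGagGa

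The stretch before the Gpbar1 start was AT-rich. Its GC content was 40.5% with 0 CpG sites, and 12.3% of 32851 RefSeq promoters (GRCm38.p6) had a lower GC content over the same length. The summit stretch had 59.3% GC and 3 CpG sites, and the Aamp-Pnkd gap had 64.4% GC and 15 CpG sites. Each was searched on both strands for the GC box GGGCGG, the CCAAT box, the AP-1 motif TGANTCA, the cyclic AMP motif TGACGT, the E-box CACGTG, the ETS motif GGAAGT and the nuclear receptor motif AGGTCA, and no 2 matches overlapped. The start stretch held GGAAGT once, as 16.7% of promoters did. The summit stretch held CACGTG once (4.54% of promoters over that length) and GGAAGT once (14.3%). The gap held CCAAT 2 times (28.5% of promoters had a match) and GGGCGG once (30.7%). A match is a description of the letters and not of a bound factor.

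The Gpbar1 window was found in 3 states. In 13 of 22 libraries a peak covered the Gpbar1 start and ran on without a break over the Aamp and Pnkd starts. In 6 libraries the peak over the Gpbar1 start ended before Aamp's own peak began, and in 3 libraries no peak reached the window. The joined state was found in 3 of 3 C, 3 of 3 H, 2 of 3 CC_s, 1 of 3 HC, 2 of 2 CC_l, 0 of 3 HH, 1 of 2 CCC and 1 of 3 HHC libraries. All 3 HH libraries had a separate peak, as did CC_s 1, HC 2 and CCC 2. HC 3, HHC 1 and HHC 3 had none.

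**Figure D1:**
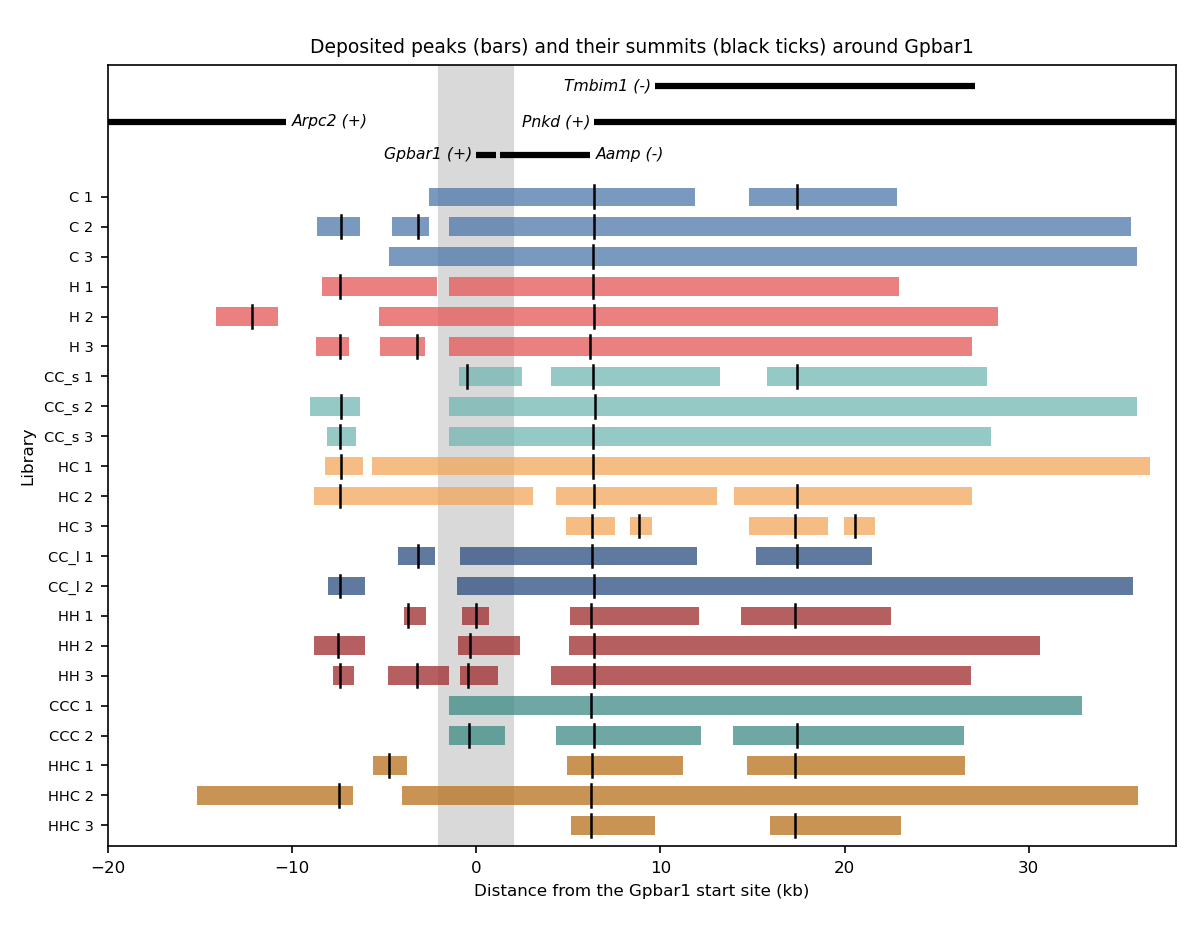
Peaks of each library (bars, 1 row per library, coloured by group) and their summits (black ticks) by distance from the Gpbar1 start site in kb, with the gene spans and strands on top and the promoter window in grey. In 13 rows 1 bar runs from the window across the Aamp and Pnkd starts, in 6 rows a bar over the Gpbar1 start ends before them, and in 3 rows the window is empty; a summit at the Aamp and Pnkd starts is present in all 22 rows.

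The joined peaks were long, and their highest coverage was not at Gpbar1. Their width was 12856 to 42256 bp (median 34406 bp), their total signal, which is coverage summed over the bases of a peak, was 230700 to 1230596, and their maximum signal was 172 to 496. Each of the 13 had its summit 6183 to 6436 bp downstream of the Gpbar1 start, which is at the Aamp and Pnkd starts. For these libraries the signal given to the Gpbar1 promoter was that of 1 peak shared with its neighbours.

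The separate peaks were small. Those of HH were 1480 bp wide with a total signal of 10601 and a maximum of 13 in HH 1, 3396 bp with 32178 and 33 in HH 2, and 2106 bp with 16175 and 22 in HH 3. Their summits lay 10 bp downstream of the start in HH 1, and 354 bp and 456 bp upstream of it in HH 2 and HH 3. The HH peaks therefore sat at Gpbar1 itself, at a maximum below that of every joined peak.

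The control peaks of this kind had like positions. CC_s 1 had a peak of 3410 bp with a total signal of 29755 and its summit 489 bp upstream. CCC 2 had 1 of 3058 bp with a total signal of 21586 and its summit 383 bp upstream. HC 2 differed: its peak was 11893 bp wide with a total signal of 97672, and the summit lay 7392 bp upstream of Gpbar1, in the stretch between Arpc2 and Gpbar1. A summit inside the promoter window was thus seen in 5 libraries, namely all 3 of HH, the library CC_s 1 and the library CCC 2.

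These small peaks were close to the edge of what the lists hold. SEACR, the peak caller, keeps only the blocks of highest summed coverage, so each list has a lowest total signal, from 7639 to 24366 over the 22 libraries. The Gpbar1 peak of HH 3 was 1.01 times its library's lowest, that of HH 1 was 1.06 times and that of HH 2 was 1.81 times. In CCC 2 and CC_s 1 the ratios were 2.13 and 2.20, and in HC 2 the ratio was 8.05. The joined peaks were 15.8 to 67.7 times the lowest. In the 3 libraries without a peak, HC 3, HHC 3 and HHC 1, the lowest listed totals were 7639, 9828 and 10139. Coverage that sums to less than these is not listed, so an absence of open chromatin was not shown.

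Between the separate peak and that of Aamp lay a gap of 1278 to 4368 bp over the 6 libraries. In HH the gaps were 4368, 2622 and 2857 bp. Aamp had a peak with its summit at the promoter pair in all 22 libraries. In the joined libraries the listed block ran through this gap.

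To compare libraries, the promoters of each were ranked by total signal and given the mean log2 value at their rank over the 22 libraries. The 19432 strongest promoters of a library kept a rank, and the rest sat at a floor of 14.19. On this log2 scale the Gpbar1 promoter stood at 18.00, 18.76 and 18.45 in C, and at 18.90, 19.14 and 19.05 in H. Every H library was above every C library, and in all 6 the value was that of the joined peak. The difference, H minus C, was 0.63 (pooled SD between replicates 0.28).

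In the long arm, CC_l stood at 18.65 and 19.09, and HH at 14.19, 14.66 and 15.43. HH did not overlap with CC_l, and HH 1 was at the floor although a peak was listed. HH 3 had a second peak that reached the window from upstream, and its value is the sum. HH minus CC_l was -4.11 (pooled SD between replicates 0.54). The difference between the obesity differences was -4.74 (pooled SD between replicates 0.41). These are the values that picked the gene. Both CC_l values were those of a joined peak with its summit at the Aamp and Pnkd starts, and the HH values came from peaks not joined to it. The contrast is thus one between listed blocks, and a loss of opening at Gpbar1 itself was not tested. In bulk nuclei, fewer nuclei with an open site and less opening in each nucleus cannot be told apart.

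**Figure D2:**
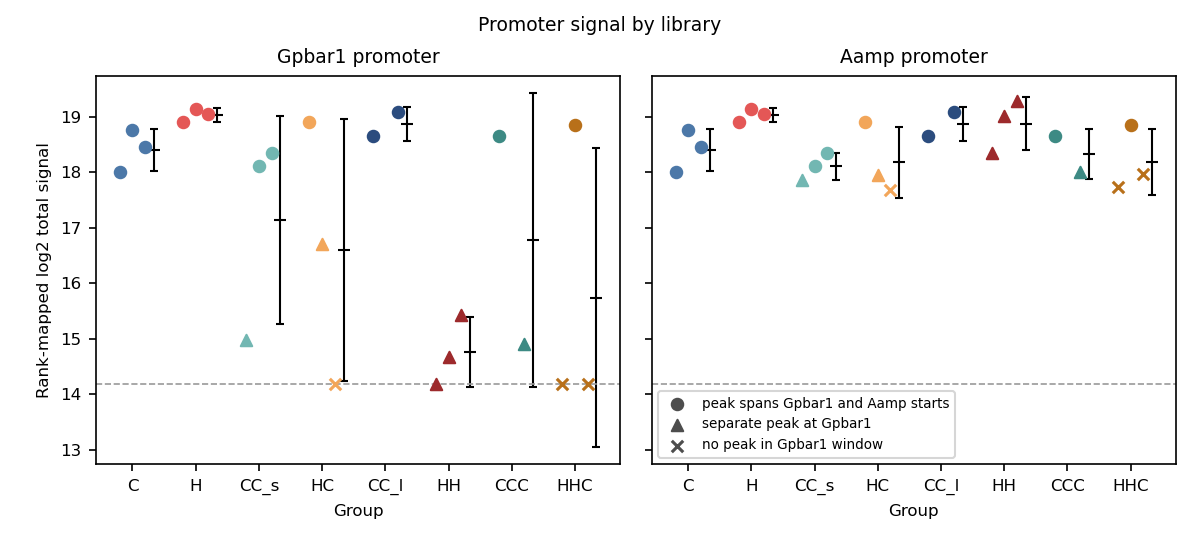
Rank-mapped log2 total signal of the Gpbar1 promoter (left) and the Aamp promoter (right) in each library by group, with the mean and SD of the group as a bar beside the points and the floor of 14.19 as a dashed line; the marker shows the state of the Gpbar1 window. At Gpbar1 all circles lie at 18.00 or above and the triangles and crosses at 16.70 or below, whereas at Aamp all markers lie between 17.68 and 19.28.

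The same peaks gave another picture at Aamp. Its promoter stood at 18.65 and 19.09 in CC_l and at 18.34, 19.01 and 19.28 in HH, so the groups overlapped, and HH minus CC_l was 0.01 (SE 0.36). At Pnkd the difference was 0.05 (SE 0.25). H minus C at Aamp was 0.63, equal to that at Gpbar1 because it was the same peak in those 6 libraries. Gm28364, a non-coding gene that starts 2611 bp downstream of the Gpbar1 start within the gap region, was intermediate, with an HH minus CC_l of -2.82 (SE 1.60) and 1 of 3 HH libraries above both CC_l libraries.

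The open stretch as a whole differed less. Peaks of the 22 libraries around Gpbar1 merged into a single region of 51741 bp (chr1:74263393-74315133). Its share of all listed signal was 0.0219 ± 0.000154% (SD, n = 2) in CC_l and 0.0191 ± 0.000298% (n = 3) in HH, without overlap. In C it was 0.0192 ± 0.00313% and in H 0.0191 ± 0.000879% (n = 3 each). HC and HHC had the widest spread, 0.0180 ± 0.00689% and 0.0173 ± 0.00692% (n = 3 each), where HC 3 and HHC 3 were lowest with 0.0101% each. CC_s had 0.0188 ± 0.00119% (n = 3) and CCC 0.0182 ± 0.00127% (n = 2).

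Counting only the part of a peak inside the window shrank the contrast. In that measure, where a peak's signal was spread evenly over its bases, H minus C was 0.13 and HH minus CC_l was -1.46, and the difference between them was -1.59. With only peaks whose summit lay in the window, H minus C was 0 because none of the 6 libraries had one, and HH minus CC_l was 0.18. That last measure was added after the data had been seen, and its 0.18 came from HH 2 alone, at 14.66, while the other HH libraries and both CC_l libraries stood at the floor of 14.14. The maximum signal, rank-mapped to log2, gave 0 for H minus C to 2 decimals and -3.13 for HH minus CC_l.

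The 3 groups in which every library was joined, H, CC_l and C, had the highest mean level of the Gpbar1 promoter, and HH, with no joined library, had the lowest. A joined library took the total of the shared peak, so this order restates the share of joined libraries in each group. The means, on the rank-mapped log2 scale, were 19.03 ± 0.12 in H, 18.87 ± 0.31 in CC_l, 18.40 ± 0.38 in C, 17.14 ± 1.88 in CC_s, 16.77 ± 2.65 in CCC, 16.60 ± 2.36 in HC, 15.74 ± 2.69 in HHC and 14.76 ± 0.63 in HH (SD; n = 2 in CC_l and CCC and 3 in the others). The ranges of each pair of neighbours in this order overlapped. CC_s, HC, CCC and HHC each mixed states and had the 4 largest SDs.

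After weight loss no difference passed a test. CC_s stood at 14.98, 18.11 and 18.34 and HC at 18.91, 16.70 and 14.19 (the floor). The groups overlapped in full, and HC minus CC_s was -0.55 (SE 1.33, limma adjusted p = 0.891). Without HC 3 the difference was 0.66 (limma adjusted p = 0.937). Without CC_s 3 it was 0.05 (limma adjusted p = 0.999).

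In the long arm CCC stood at 18.65 and 14.90, and HHC at 14.19, 18.85 and 14.19. HHC minus CCC was -1.03 (SE 1.85, limma adjusted p = 0.953), and without CCC 1 it was 0.84 (limma adjusted p = 0.951). Without HHC 3 it was -0.26 (limma adjusted p = 0.999). The difference between the long and the short arm was -0.49 (SE 2.52, limma adjusted p = 1). Spread between libraries of 1 group was larger than any of these differences.

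Over both arms, with labels permuted within each arm (200 relabellings, two-sided exact permutation test), weight loss minus control was -0.79 for the log2 total signal (p = 0.575). It was -0.67 for the log2 maximum signal (exact permutation p = 0.47), -5390 bp for peak width with no peak counted as 0 (exact permutation p = 0.675), and -1292 bp for the bases of the window covered (exact permutation p = 0.225). Adjusted over the 4 measures, each exact permutation p was 0.675. HC covered 2667 ± 2310 bp of the 4001 bp window and CC_s 3307 ± 327 bp (SD, n = 3 each), and HHC covered 1334 ± 2310 bp (n = 3) against 3277 ± 310 bp in CCC (n = 2). With both HC 3 and HHC 3 left out, the total signal gave 0.20 (exact permutation p = 0.9). The neighbours did not pass either: Aamp differed by 0.08 (SE 0.41, limma adjusted p = 0.950) in HC minus CC_s and by -0.14 (SE 0.47, limma adjusted p = 0.975) in HHC minus CCC.

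How far peaks run together differed between libraries across the genome. Of 1713 pairs of neighbouring coding start sites that lie 5500 to 7000 bp apart, the distance class of Gpbar1 and Aamp, the share that 1 peak spanned, of the pairs with a covered start, was 1.99 to 56.2% (median 27.6%). It was highest in CC_s 2 and lowest in HC 3 and HHC 3 (1.99 and 2.63%). In HH it was 4.97, 25.1 and 15.5%, and in CC_l it was 15.3 and 29.7%. C had 29.5, 39.3 and 43.7%, and H had 27.5, 27.6 and 28.0%.

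This share moved with the state of the Gpbar1 window. In 12 of the 13 joined libraries it was above the 25.1% that was the highest among the other 9. The exception was CC_l 1, joined at 15.3%, a share that 6 of the 9 libraries without a joined peak exceeded, HH 2 and HH 3 among them. The lowest listed total signal also differed, at 10461 to 24366 in joined libraries, 9995 to 17767 in those with a separate peak and 7639 to 10139 in those with none. The part of either in the Gpbar1 result was not tested.

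**Figure D3:**
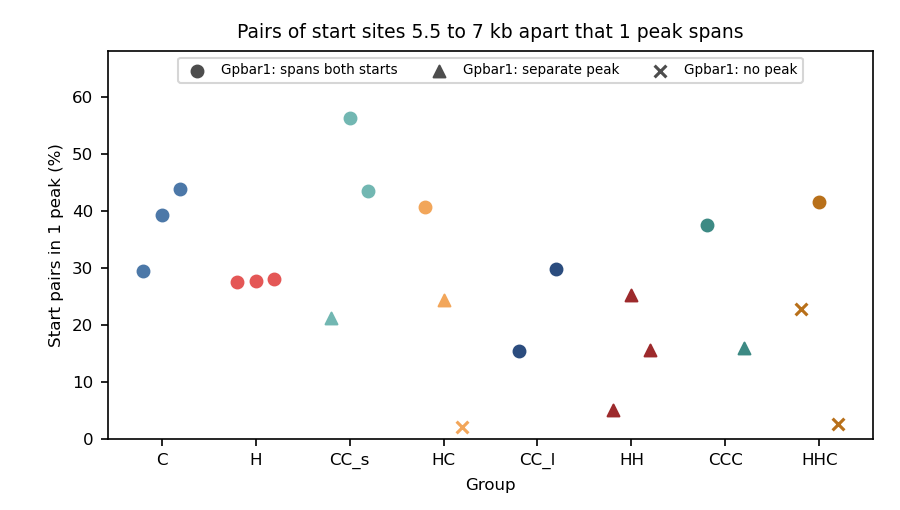
Percent of start-site pairs 5.5 to 7 kb apart that lie under 1 peak in each library, by group, with the state of the Gpbar1 window as the marker. Circles (peak joined with Aamp) lie at 27.5% or above except CC_l 1 at 15.3%, and triangles (separate peak) and crosses (no peak) lie at 25.1% or below.

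Promoters without a summit of their own were common. Of the promoters with a peak, 11.6 to 32.5% per library (median 21.9%) held no summit in the window, as Gpbar1 did in the 13 joined libraries and HC 2.

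Around Gpbar1 the summits recurred at few places. Joined within 150 bp of each other, those within 20 kb of the gene fell into 11 groups. The Aamp and Pnkd starts had 1 in 22 of 22 libraries. A stretch 7326 to 7484 bp upstream of Gpbar1, between it and Arpc2, had a summit in 11 libraries from 7 of the 8 groups, all but CCC. Another 17295 to 17410 bp downstream, inside the spans of Pnkd and Tmbim1 and at the start of Gm29358, had 1 in 9 libraries. A stretch 3149 to 3232 bp upstream had 1 in 4 libraries, 1 each of C, H, CC_l and HH.

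Several peaks began at the same base. The first base of the Gpbar1 peak was 1495 bp upstream of the start site in 7 libraries, namely C 2, H 1, H 3, CC_s 2, CC_s 3, CCC 1 and CCC 2, and in HH 3 the upstream peak ended within 2 bp of it. Only 57 of 1071738 distinct peak starts in all lists (0.00532%) were shared by 7 or more libraries. In 6 other libraries a peak ran across this base. The sequence around it (chr1:74277040-74277070, GRCm38, plus strand) is shown because the edge recurs, with the first base of the shared peaks in capitals.
Shared edge: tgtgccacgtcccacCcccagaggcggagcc

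The other genes of bile acid biology differed in whether their promoters were above the floor. A list of 57 genes besides Gpbar1 held receptors, transporters, enzymes of bile acid synthesis and conjugation, feedback genes and cyclic AMP signalling genes with their targets. Of these, 25 were above the floor in all 22 libraries, 21 in some and 11 in none. Transporters were mostly at the floor, with 6 of 13 never above it, whereas 14 of 19 cyclic AMP signalling genes were above it in every library.

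In H minus C, 34 of the 57 were tested, and 2 were called, 1 higher and 1 lower, at an unadjusted limma p under 0.01 with a log2 difference above 1, where 5.01% of all 19914 promoters tested were called. Both also passed at a limma adjusted p under 0.05, where 2.56% were called, but 0 did by the maximum signal, by the part of a peak inside the window, or with all libraries of the arm in the fit. By the adjusted rule the count was also 0 without C 2, H 1 or H 2, and 1 without C 3 or H 3. By the unadjusted rule it was 4 without C 1. At an unadjusted p under 0.05 and any fold change there were 10 of 34, beside 20.4% of all promoters. Of those 10, Slco1b2 and Baat stood at the floor in every C library and entered through H alone. In HH minus CC_l, 1 of 36 was higher by the unadjusted rule (0 of 40 without CC_l 1, and 2 without HH 1 or HH 2), beside 1.87% of all promoters, and 0 by the adjusted rule (0.11%), with 3 at an unadjusted p under 0.05 (6.91% of all). Of those 3, S1pr2 stood at the floor in both CC_l libraries and entered through HH alone. The call by the unadjusted rule ended by the maximum signal and with all libraries of the arm in the fit, and there were 2 by the part of a peak inside the window. In HC minus CC_s 0 of 34 were called by limma (1.59% of all by the unadjusted rule and 0.101% by the adjusted), with 2 at an unadjusted p under 0.05 (6.49% of all). The unadjusted rule made 2 calls there without HC 3 and 1 without CC_s 3, and 1 each by median scaling, without the filter on low promoters and without the trend. In HHC minus CCC 0 of 37 were called by limma (0.872% of all by the unadjusted rule and 0 by the adjusted), with 1 at an unadjusted p under 0.05 (3.97% of all). That 1, Adcy3, stood at the floor in every HHC library and entered through CCC alone. The shares over all promoters were counted with the same filter. The median difference of the list, on the log2 scale, was -0.11, 0.07, 0.05 and 0.04 in these 4 contrasts in that order, beside 0.03, 0.00, 0.07 and 0.00 over all promoters tested.

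Hsd17b4 encodes the peroxisomal bifunctional enzyme that shortens the side chain of bile acid precursors. Its promoter stood at 16.79, 16.52 and 16.91 in C and at 17.69, 17.74 and 17.85 in H, on the rank-mapped log2 scale. All H libraries were above all C libraries, by 1.02 (SE 0.18, limma adjusted p = 0.0426). In CC_l it stood at 16.72 and 16.52 and in HH at 17.75, 17.86 and 18.40, again without overlap, by 1.38 (SE 0.31, limma adjusted p = 0.371). The call in H minus C was lost without any of the 6 libraries (limma adjusted p from 0.0597 without C 3 to 0.155 without C 2), and by the maximum signal the difference was 0.18 in H minus C and -0.12 in HH minus CC_l.

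Scp2 encodes the thiolase and sterol carrier that completes the shortening. It stood at 19.34, 19.82 and 19.28 in C and at 17.87, 18.03 and 18.00 in H, without overlap, and H minus C was -1.52 (SE 0.20, limma adjusted p = 0.0241). In CC_l it stood at 18.88 and 19.18 and in HH at 17.56, 18.55 and 18.76, and the difference was -0.74 (SE 0.43, limma adjusted p = 0.801). Without 1 library that difference ran from -0.97 to -0.37. As at Gpbar1, the value depended on which peaks counted: with only peaks whose summit lay in the window, H minus C was 1.72 (limma adjusted p = 0.0397), and with only the part of a peak inside the window it was 0.09. Its call was lost without C 2, H 1 or H 2 (limma adjusted p = 0.0666, 0.0820 and 0.0720).

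Among the receptors, Rxra, the partner of the nuclear bile acid receptors, was above the floor in all 22 libraries. Its differences were -0.99 in H minus C, -1.33 in HH minus CC_l, -0.49 in HC minus CC_s and -0.38 in HHC minus CCC, and none was called (limma adjusted p = 0.323, 0.748, 0.802 and 0.953). Without 1 library the last ran from -0.98 to 0.23, with a change of sign without CCC 1 or HHC 3, and HC minus CC_s ran from -1.17 to -0.11. In the same way H minus C ran from -1.31 to -0.50 and HH minus CC_l from -1.84 to -0.95. By the maximum signal HH minus CC_l was 0.094. S1pr2, a sphingosine-1-phosphate receptor that also responds to conjugated bile acids, stood at the floor in both CC_l libraries and at 15.58, 15.53 and 14.72 in HH. It entered that contrast through HH alone, so no test is given for it. In HHC it stood at 14.96, 15.39 and 16.73, beside 14.19 and 14.32 in CCC. Its differences were 1.44 in HHC minus CCC and 0.40 in HC minus CC_s, it was called in neither, and it was not tested in H minus C. Without 1 library these differences ran from 0.92 to 1.81 and from 0.11 to 0.64. Vdr, the vitamin D receptor, was above the floor in 18 libraries. Nr1h4, Nr1i2 and Nr1i3, the genes for FXR, PXR and CAR, were above it in 4, 2 and 3 libraries and were not tested in any of the 4 contrasts.

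**Figure D4:**
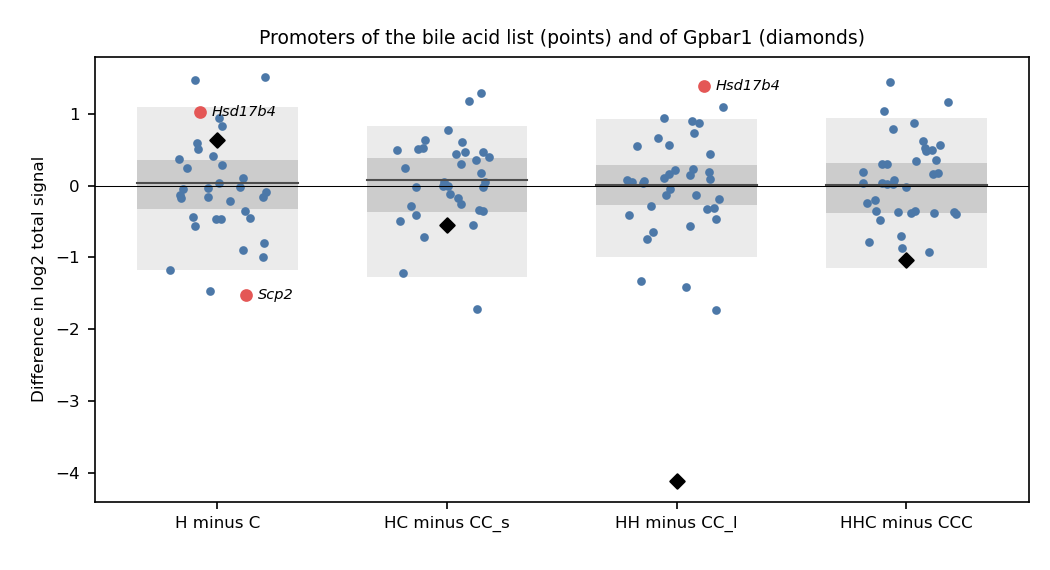
Differences in rank-mapped log2 total signal for the tested promoters of the bile acid list (blue, and red with a name where called at an unadjusted p under 0.01) and for Gpbar1 (black diamonds, not tested in H minus C and HH minus CC_l) in the 4 contrasts. Grey boxes span the 5th to 95th and 25th to 75th percentiles of all promoters tested and the line is their median; the Gpbar1 diamond of HH minus CC_l at -4.11 lies below all list members, and Hsd17b4 and Scp2 are the only named points.

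The promoters most like that of Gpbar1 over the 22 libraries were chosen by Pearson's r of the rank-mapped log2 total signal among 21962 promoters over 200 kb away. They were AC132367.1 (r = 0.84), Ift43 (0.83), Gm37978 (0.82), Gm22299 (0.82) and Sc5d (0.81), beside a 99th percentile of 0.62. Being picked as the highest, they had to exceed that percentile, and r also took in the values that picked Gpbar1. Ift43 is a part of the ciliary transport machinery, and Sc5d encodes an enzyme of cholesterol synthesis. Of the genes of the locus, Gm28364 had an r of 0.81, Aamp 0.56 and Pnkd 0.19. These points share their libraries, and so the extent to which peaks run together.

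Adipocyte markers were above the floor throughout, and part of the markers of other cell types were as well. All 12 adipocyte markers were above the floor in every library, with a summed log2 signal above the floor of 56.6 to 78.7 (lowest in HHC). The sums were higher in H (74.8 to 77.0) than in C (71.0 to 72.3) and higher in HH (74.0 to 78.7) than in CC_l (71.8 to 72.4). Of 12 macrophage markers, 3 to 8 were above the floor (summed 5.48 to 14.5), with Itgam and Ptprc never above it and lower sums in H (5.48 to 8.04) than in C (9.34 to 13.4). Endothelial and stromal markers numbered 3 to 11 of 12 above the floor. Their highest sum, 21.4, was in HH, where the lowest was 5.46, and the markers above the floor there numbered 4 to 11. The sums were higher in HC (6.78 to 13.0) than in CC_s (5.31 to 6.25). Lymphocyte markers numbered 0 to 3 of 12, with Cd3e, Cd4, Cd8a, Cd2, Cd79b and Ncr1 never above it and lower sums in H (0 to 0.70) than in C (0.75 to 4.12). For these 4 lists the sums overlapped in the other pairs. Mesothelial markers numbered 0 to 4 of 6, with sums up to 0.07 in H and 0.16 in HH beside 0.50 to 4.00 in C and 1.15 to 4.13 in CC_l. After weight loss the sums were higher in HHC, 3.43 to 6.88, than in CCC, 0.42 to 1.44, and overlapped between HC, 3.20 to 8.04, and CC_s, 1.59 to 5.77. The part of any of these in the Gpbar1 values was not tested. The lists held 40528 to 60523 peaks, and they carry no read counts, so the depth of a library is unknown.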

How the data were processed

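The authors trimmed reads with Trim Galore 0.6.6, aligned them to GRCm38 with Bowtie2 2.4.4, and called peaks per library, without pooling, with SEACR 1.3 in stringent mode at a numeric threshold of 0.01. It is not stated whether the removal of problem regions preceded the deposited lists. Each deposited peak has a total signal and a maximum signal, both coverage values that the authors did not state to be normalised. Depth is therefore unknown, and the number of libraries limits the precision.

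From these lists, the signal of the peaks that overlap a window of 2000 bp on each side of the start sites of GENCODE vM21 (basic) was summed per gene and rank-mapped to log2 over 22 libraries. Contrasts were fitted with limma 3.58.1 (R 4.3.3; lmFit, eBayes with trend) on the 2 groups compared, or on 4 for a difference of differences. A promoter was tested if it was above the floor in at least the number of libraries of the smaller group, with Benjamini-Hochberg adjustment over all tested. The code was tested on simulated data. For single measures, labels were permuted exactly within arms (two-sided, 200 relabellings). Python 3.11.15, pandas 2.3.3 and numpy 2.4.6 were used for the rest, and sequences came from the RefSeq genome of the same build.

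Gpbar1, the gene lists, the tests and the naming rule were chosen with earlier results of these data known. Named are Gpbar1, the genes within 20 kb, list members called by the unadjusted rule with the receptors, and the 5 promoters of highest r. Replicate numbers did not pair the libraries. The number of columns not matched to a sample was 0. Alternatives covered the signal measure, scaling, window, overlap, peak number, filters, the model, leaving out each library, and a replicate block.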

Additional observations from a re-analysis of the deposited data

Results flagged for a closer look

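By total signal, the obesity difference at the Gpbar1 promoter ran in opposite directions in the 2 arms: every H library was above the C mean and every HH library was below the CC_l mean. The difference between HH minus CC_l and H minus C was -4.74 on the rank-mapped log2 scale, and that difference was not tested, since the gene was picked for it. By the maximum signal H minus C was -0.0043 and HH minus CC_l -3.13, and with only peaks whose summit lay in the window they were 0 and 0.18, the latter from HH 2 alone, so the opposite directions were not seen by these measures.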

How the results depend on the processing

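The lists hold blocks above an edge that differs between libraries, groups are 2 or 3 mice, and p-values measure the spread between them. No weight loss difference at Gpbar1 had an adjusted p under 0.05 in any alternative, and HC minus CC_s and HHC minus CCC kept their direction in all but those that leave out libraries. Their sizes moved: from -0.55 and -1.03 to -1.27 and -1.87 by median scaling, -1.06 and -1.48 by the part inside the window, -0.73 and -0.61 by the maximum signal, and -0.28 and -0.52 with the 30000 strongest peaks. Over both arms the -0.79 became -1.57, -1.27, -0.67 and -0.40 in that order, and -0.23 with summits in the window. At Gpbar1 the maximum signal gave -0.0043 for H minus C, -3.13 for HH minus CC_l, -3.12 for their difference and 0.12 for the difference between arms after weight loss. Median scaling gave 0.36 for H minus C, -3.95 for HH minus CC_l and -4.32 for the difference of obesity differences. The part of a peak inside the window gave 0.13, -1.46 and -1.59, and peaks with a summit in the window gave 0, 0.18 and 0.18, for H minus C, HH minus CC_l and their difference. That last measure, and leaving out HC 3 with HHC 3, were chosen after seeing the data. The cause of these shifts was not tested.

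Where 1 CC_l or CCC library was left, it was assumed to vary like the group compared with it. Leaving out libraries gave -1.70 to 0.66 for HC minus CC_s, with a change of sign without HC 3 or CC_s 3. It gave -2.91 to 0.84 for HHC minus CCC, with a change of sign without CCC 1. The difference between arms was -2.36 to 1.39, and positive without CC_s 1, HC 1, CCC 1, HHC 1 or HHC 3. Over both arms the total signal gave -1.73 to 0.20 and the peak width -13227 to 2454 bp, both positive without CCC 1 and without HC 3 and HHC 3 together. Without 1 library the bases of the window covered gave -1958 to -625 bp and the log2 maximum signal -1.33 to -0.0002. Without HC 3 and HHC 3 together these were -291 bp and -0.06. Leaving out 1 library gave 0.43 to 0.81 for H minus C, -4.45 to -3.83 for HH minus CC_l and -5.07 to -4.45 for their difference. The gene was picked for these contrasts, so the ranges describe them and are no support for them.

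In the bile acid list, calls by the unadjusted rule in H minus C were 0 by the maximum signal, 1 with summits in the window and 2 to 4 without 1 library (4 without C 1). Calls by the adjusted rule were 0 by the maximum signal, by the part inside the window, with all libraries of the arm in the fit and with the block, 1 by median scaling and with summits in the window, and 0 to 2 without 1 library (0 without C 2, H 1 or H 2, and 1 without C 3 or H 3). In HC minus CC_s the unadjusted rule gave 1 by median scaling, without the filter and without the trend, and 0 to 2 without 1 library (1 without CC_s 3 and 2 without HC 3). In HH minus CC_l it gave 0 by the maximum signal, with all libraries of the arm and with the block, 2 by the part inside the window, and 0 to 2 without 1 library (0 without CC_l 1, 2 without HH 1 or HH 2). In HHC minus CCC it gave 1 with summits in the window. Hsd17b4 in HH minus CC_l was -0.12 by the maximum signal and -0.17 by the part inside the window, and Scp2 in H minus C was 0.091 by the part inside the window and 1.72 with summits in the window.

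Replicate numbers did not pair the libraries. Deviations of same-numbered libraries correlated at -0.29 to 0.21, and in the groups of 3, 1 of 6 libraries correlated best with its own number. With the number as a block, the difference between arms at Gpbar1 was 0.29, HHC minus CCC there was -0.26, and calls over all promoters by the adjusted rule went from 510 to 51 in H minus C, from 20 to 0 in HC minus CC_s and from 23 to 0 in HH minus CC_l. With summits in the window, Gpbar1 could not be fitted in the pairs because it stayed at the floor in too many libraries.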
